A study of Homo sapiens with 5 samples.

Results

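The peaks of chromosome 1 in 3 PHF8 ChIP-seq peak lists are described here by chromosome arm. A peak belonged to the short or the long arm by its side of the centromere in the human build hg19, where unsequenced bases fill chr1:121485435-142535434. Chromosome 1 held 2130 of 21506 peaks in replicate A (9.90%), 2073 of 20882 in replicate B1 (9.93%) and 1972 of 20120 in replicate B2 (9.80%). The short arm held 1176, 1146 and 1080 of them, the long arm 954, 927 and 892, and 0 lay between the arms. The chromatin came from SKMEL-147, a melanoma line grown in culture, and was fixed, sheared and precipitated with an antibody to PHF8 for each of the 3 lists, while 2 input chromatin libraries (A and B) are not used here on their own. The labels of these 5 samples give no genotype or treatment, so the 3 lists form 1 group from 1 cell line. They do not say whether the replicates came from separate cultures, so the spread between them may be technical, and B1 and B2 share a letter.

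PHF8 belongs to the Jumonji demethylases, and its PHD finger reads methylated histone tails at the starts of active genes. Its catalytic domain removes methyl groups that go with silent chromatin. Many starts of broadly expressed genes lie in CpG islands, stretches rich in the dinucleotide CG that mostly stay free of DNA methylation, whereas clustered, tissue-restricted gene families often start outside them.

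The sequence under the strongest peaks of each arm is shown first, because the arms differed in such CpG-rich sequence. Each line gives 101 bases of GRCh37, the same build as hg19, around the summit in replicate B2 on the plus strand, with every CG in capitals. Strength was ranked by mean percentile over the lists, and promoter peaks were limited to those of protein-coding genes. For each arm the lines come from the strongest promoter peak clear of annotated UTRs, the strongest region away from gene starts, and the strongest promoter peak whose wider surroundings were not CpG-island-like.
CZIB, short arm, chr1:53686117-53686217: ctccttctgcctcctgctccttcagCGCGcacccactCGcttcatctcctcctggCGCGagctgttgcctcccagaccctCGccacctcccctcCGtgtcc
Short arm region away from gene starts, chr1:1840385-1840485: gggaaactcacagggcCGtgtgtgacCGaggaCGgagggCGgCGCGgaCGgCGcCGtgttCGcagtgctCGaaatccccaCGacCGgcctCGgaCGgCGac
PEX14, short arm, chr1:10535073-10535173: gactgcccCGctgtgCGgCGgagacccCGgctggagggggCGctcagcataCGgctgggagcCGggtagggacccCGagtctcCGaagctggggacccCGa
IBA57, long arm, chr1:228353550-228353650: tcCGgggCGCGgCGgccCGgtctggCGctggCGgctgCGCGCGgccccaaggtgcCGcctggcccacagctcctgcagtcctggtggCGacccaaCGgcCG
Long arm region away from gene starts, chr1:153756029-153756129: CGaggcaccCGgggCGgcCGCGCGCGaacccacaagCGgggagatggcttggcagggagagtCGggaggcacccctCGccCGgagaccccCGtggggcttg
PSMD4, long arm, chr1:151227333-151227433: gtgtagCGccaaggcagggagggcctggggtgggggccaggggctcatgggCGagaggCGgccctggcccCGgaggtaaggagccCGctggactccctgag
The 101 bases held 7 CGs at CZIB, 16 at the short arm region, 10 at PEX14, 14 at IBA57, 12 at the long arm region and 5 at PSMD4. The fold enrichment of these peaks was 60.2, 42.3 and 40.5 at CZIB in A, B1 and B2, against 44.8, 26.6 and 23.3 at PEX14. It was 57.8, 44.4 and 44.6 at IBA57, against 47.0, 26.1 and 26.6 at PSMD4. PEX14 and PSMD4 were the strongest of a subset, so by that choice they could not rank above CZIB and IBA57.

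The arms carried peaks at almost the same rate per annotated transcription start site (TSS), and the peaks of the long arm were lower. GENCODE release 44 on this build places 10747 distinct TSSs on the short arm and 8945 on the long arm. The short arm held 10.9, 10.7 and 10.0 peaks per 100 TSSs in A, B1 and B2, and the long arm held 10.7, 10.4 and 9.97. The long arm was lower in 3 of 3 lists, by a mean of -0.030 ± 0.016 on the log2 scale (SD, n = 3), which is 0.980-fold. Every arm difference was set against a two-sided exact sign-flip permutation test over the 3 lists, which cannot give a p below 0.25, so the size, the SD and the value in each list are what is read. With only the transcripts of protein-coding genes as TSSs the difference was 0.00052, and with 1 TSS per gene it was -0.188.

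Fold enrichment is the ratio of ChIP fragments to the expected background at a summit, with the same fixed count added to both. It had a median of 20.3, 12.3 and 12.5 on the short arm in A, B1 and B2. On the long arm it was 16.7, 10.4 and 10.6. The long arm was lower in each list, and the log2 difference of -0.25 ± 0.027 (SD, n = 3, exact sign-flip p = 0.25) was 0.84-fold. The share of peaks with a fold enrichment above 20 was 33.5% ± 15.0 on the short arm and 28.2% ± 12.9 on the long arm. Within A, B1 and B2 the difference was -7.77, -4.34 and -3.65 percentage points. The median −log10 q-value fell likewise, from 63.0, 32.0 and 34.5 to 48.1, 26.7 and 27.7. Replicate A lay far above B1 and B2 on this scale on both arms, so arms were compared within each list. Median peak width was 484, 454 and 458 bp on the short arm and 469, 437 and 427 bp on the long arm, a log2 difference of -0.066 ± 0.031 (SD, n = 3, exact sign-flip p = 0.25).

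**Figure D1:**
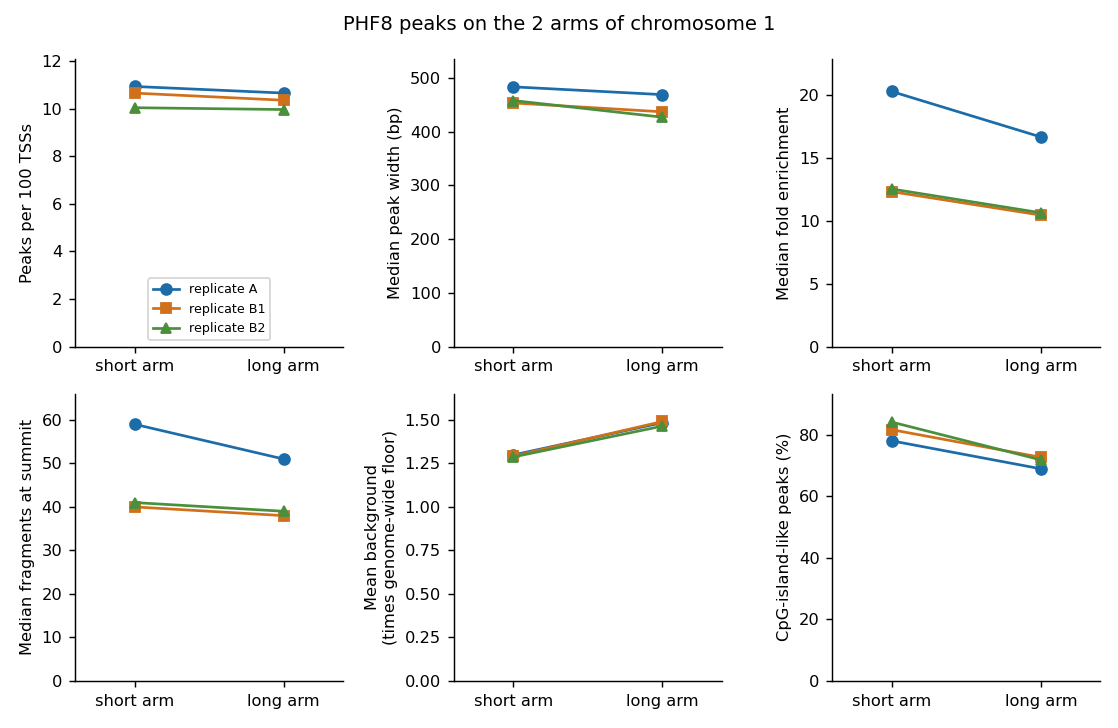
Each panel plots 1 value of the short and the long arm of chromosome 1, with a point and line per replicate (A, B1, B2) and axes from 0: peaks per 100 TSSs, median peak width in bp, median fold enrichment, median fragments at the summit, mean background in multiples of the genome-wide floor, and the share of CpG-island-like peaks in percent. In all 3 lists the long arm had the lower fold enrichment and CpG-island-like share and the higher background.

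The deposited fold enrichment and p-value together fix 2 simpler quantities, the whole number of ChIP fragments at a summit and the background expected there. The median number of fragments was 59, 40 and 41 on the short arm and 51, 38 and 39 on the long arm, so the numbers were closer than the fold enrichments (log2 difference -0.12 ± 0.079, SD, n = 3, exact sign-flip p = 0.25). With the mean of the log2 values in place of the median, this difference was 0.0013. The background cannot go below a genome-wide floor, and it was on average 1.30, 1.29 and 1.29 times the floor on the short arm and 1.48, 1.49 and 1.46 times on the long arm. The long arm lay higher in each list, by 0.195 ± 0.011 on the log2 scale (SD, n = 3, exact sign-flip p = 0.25). These 3 backgrounds were not independent, since the lists had 2 inputs between them. At the floor itself were 52.1%, 52.8% and 52.5% of the short arm peaks and 23.3%, 23.2% and 21.9% of the long arm peaks. Among peaks at the floor the fold enrichment of the long arm was 16.8, 9.55 and 10.2, against 22.2, 12.6 and 12.8 on the short arm. That is a log2 difference of -0.38 ± 0.042. Between the floor and 1.5 times the floor the difference was smaller, at -0.159 ± 0.016, and above 1.5 times the floor it was -0.161 ± 0.036. The part of the background in the arm difference of fold enrichment was not tested.

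The arms also differed in base composition at the summits. A peak was called CpG-island-like when the bases within 250 of its summit had a GC share of at least 0.5 and at least 0.6 of the CGs that its C and G content would give. On the short arm 78.1%, 81.7% and 84.2% of peaks passed, and on the long arm 69.0%, 72.7% and 71.9%. The groups did not overlap, and the difference was -10.1 ± 1.89 percentage points (SD, n = 3, exact sign-flip p = 0.25). On the other chromosomes 74.1%, 77.3% and 78.9% passed in A, B1 and B2, between the 2 arms in each list. Among CpG-island-like peaks alone, median fold enrichment was 25.7, 14.7 and 14.1 on the short arm and 23.8, 13.9 and 13.8 on the long arm. That is a log2 difference of -0.073 ± 0.041, against -0.25 over all peaks. Among the remaining peaks the long arm was higher in A and B1 and lower in B2, with 7.53, 5.80 and 5.86 against 7.04, 5.45 and 5.91. Peaks that were not CpG-island-like were low on both arms and took a larger share of the long arm. Their part in the arm difference of fold enrichment was not tested. The annotation differed the same way, since 40.2% of short arm TSSs and 34.3% of long arm TSSs were CpG-island-like.

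Most peaks of either arm lay at gene starts. A TSS window of 1 kb on either side was overlapped by 88.8%, 90.5% and 92.1% of short arm peaks and by 86.7%, 89.8% and 90.4% of long arm peaks, a difference of -1.53 ± 0.71 percentage points (SD, n = 3, exact sign-flip p = 0.25). With 1 TSS per gene the difference turned to 2.99 points. Merged over the lists, the short arm had 1201 regions and the long arm 971, of which 876 (72.9%, 95% Wilson interval 70.4 to 75.4) and 718 (73.9%, 71.1 to 76.6) were in all 3 lists. The share of single peaks found in all lists was 86.1% ± 6.68 and 86.3% ± 6.35, and its difference changed sign between lists (-0.16, 1.75 and -1.05 points, exact sign-flip p = 1). The intervals cover counting error only.

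Along the chromosome the number of peaks followed the number of TSSs. Of the 10 Mb bins, 23 held at least 20 peaks in each list and at least 20 TSSs, and over them peak number and TSS number had a Spearman's rho of 0.96, 0.97 and 0.97 in A, B1 and B2. This describes bins of 1 chromosome that share libraries and annotation. The bin from 120 to 130 Mb was left out, with 10, 7 and 9 peaks, as was the one from 130 to 140 Mb, which had neither TSS nor peak. The rate per 100 TSSs had a coefficient of variation over bins of 17.0% ± 0.77 and ran 2.08-fold from the lowest to the highest bin.

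The highest rates stood on the outer short arm. From 20 to 30 Mb the lists gave 14.3, 14.3 and 13.5 peaks per 100 TSSs, and from 30 to 40 Mb 12.67, 12.95 and 12.03. Next came 150 to 160 Mb, the gene-dense stretch of the long arm with 2067 TSSs, at 11.6, 11.5 and 11.5. The lowest were 70 to 80 Mb with 6.60, 6.80 and 6.80, 190 to 200 Mb with 6.62, 7.57 and 6.94, and 110 to 120 Mb with 8.34, 8.04 and 7.53. The 3 highest and the 3 lowest bins did not overlap in any list, but they were chosen by the mean of these same rates. The neighbours in order 150 to 160 Mb and 80 to 90 Mb, at 11.5 ± 0.084 and 11.5 ± 0.59, did not differ beyond their spread.

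**Figure D2:**
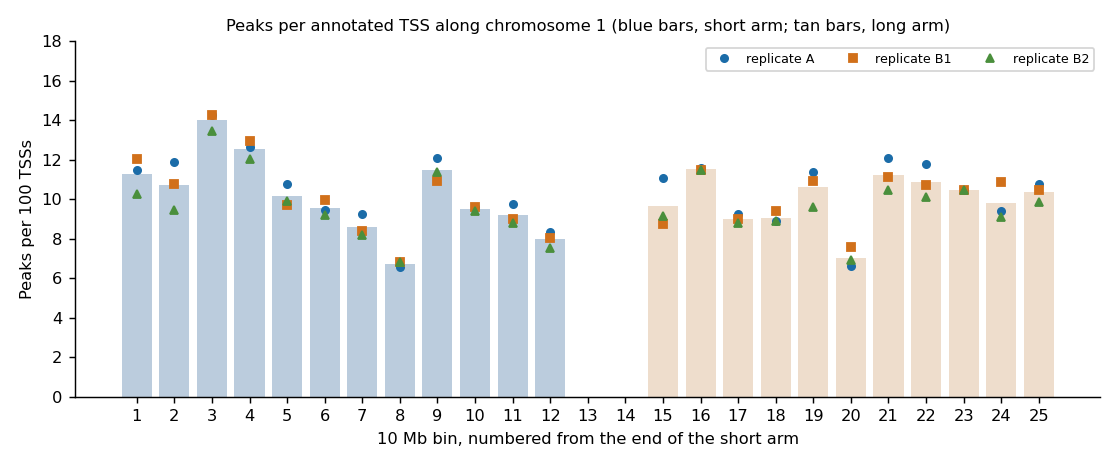
Peaks per 100 annotated TSSs (vertical axis) in 10 Mb bins numbered from the end of the short arm (horizontal axis). Bars are means of the 3 lists and points the single lists. The rate peaks in bin 3 at 14.0 and is lowest in bins 8 and 20 at 6.74 and 7.05, and bins 13 and 14 are left out.

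Fold enrichment and width had other orders along the chromosome. The order of bins is that of the mean over the lists, and single lists differed from it. Median fold enrichment was lowest from 140 to 150 Mb, next to the centromere on the long arm, at 11.6, 7.69 and 7.35, where the peaks were also narrowest on average with 358, 344.5 and 328 bp, although 210 to 220 Mb was narrower in A with 343 bp. By the mean it was highest from 40 to 50 Mb at 25.6, 15.3 and 16.1 and from 220 to 230 Mb at 25.97, 15.7 and 14.6, although 190 to 200 Mb had 15.4 in B1 and 15.8 in B2. Peaks were widest on average from 60 to 70 Mb, with medians of 781, 750 and 740 bp, although 70 to 80 Mb reached 836 bp in A. Without the long arm below 150 Mb, the arm difference of fold enrichment was -0.205 ± 0.0091 on the log2 scale.

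The background under the peaks moved in steps that all 3 lists shared. In 2 Mb steps with at least 5 peaks in each list, classed after the values were seen as below 1.1, 1.1 to 1.6 or above 1.6 times the floor, the median was at the floor from 0 to 42 Mb. It was 1.28, 1.32 and 1.30 times the floor from 42 to 56 Mb in A, B1 and B2, and 2.06, 2.02 and 2.03 times from 58 to 90 Mb. From 90 Mb to the end of the short arm it was at the floor again. On the long arm it was 1.32, 1.32 and 1.31 from 144 to 166 Mb, at the floor from 166 to 186 Mb, and 2.07, 2.12 and 2.09 from 192 to 206 Mb. Further out it was 1.38, 1.34 and 1.34 from 206 to 210 Mb, at the floor from 210 to 220 Mb, between 1.05 and 1.26 from 220 to 244 Mb, and 1.83, 1.91 and 1.85 from 244 to 250 Mb. Over the 23 bins the median background of the lists differed by an average SD of 0.029 within a bin and by an SD of 0.42 between bins. The background comes from the input through MACS. With 2 inputs for 3 lists, at least 2 lists shared an input, so their agreement is not that of 3 independent backgrounds. The number of copies of each stretch in these cells was not measured, and its part in the steps was not tested.

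In the 3 stretches of high background, 52 Mb with 3094 TSSs, summits held a median of 77, 62 and 64 fragments. In the 5 stretches at or next to the floor, 108 Mb with 9526 TSSs, they held 51, 35 and 37. High stretches thus carried 1.67 times the fragments (log2 difference 0.74 ± 0.12, SD, n = 3) over 2.03 times the background. Their median fold enrichment was 18.5, 12.4 and 12.7 against 18.9, 11.5 and 11.8, lower in A and higher in B1 and B2. Their peaks were wider in each list, at 652, 603 and 570 bp against 457, 424 and 421 bp, and 25.4% ± 3.62 of them against 9.60% ± 2.18 were over 1 kb. These values are given without a test because the stretches were chosen by the background, which enters the fold enrichment. The stretches also differed in what they held, with 82.3% ± 3.25 against 91.0% ± 1.32 of peaks at TSS windows and 70.4% ± 4.70 against 83.3% ± 2.27 CpG-island-like, and the part of this in the widths was not tested. Peaks per 100 TSSs were 9.99 ± 0.296 in the high stretches and 11.0 ± 0.522 at the floor. On the long arm alone this order turned, with 11.2 ± 0.36 in the high stretches and 10.6 ± 0.46 at the floor.

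**Figure D3:**
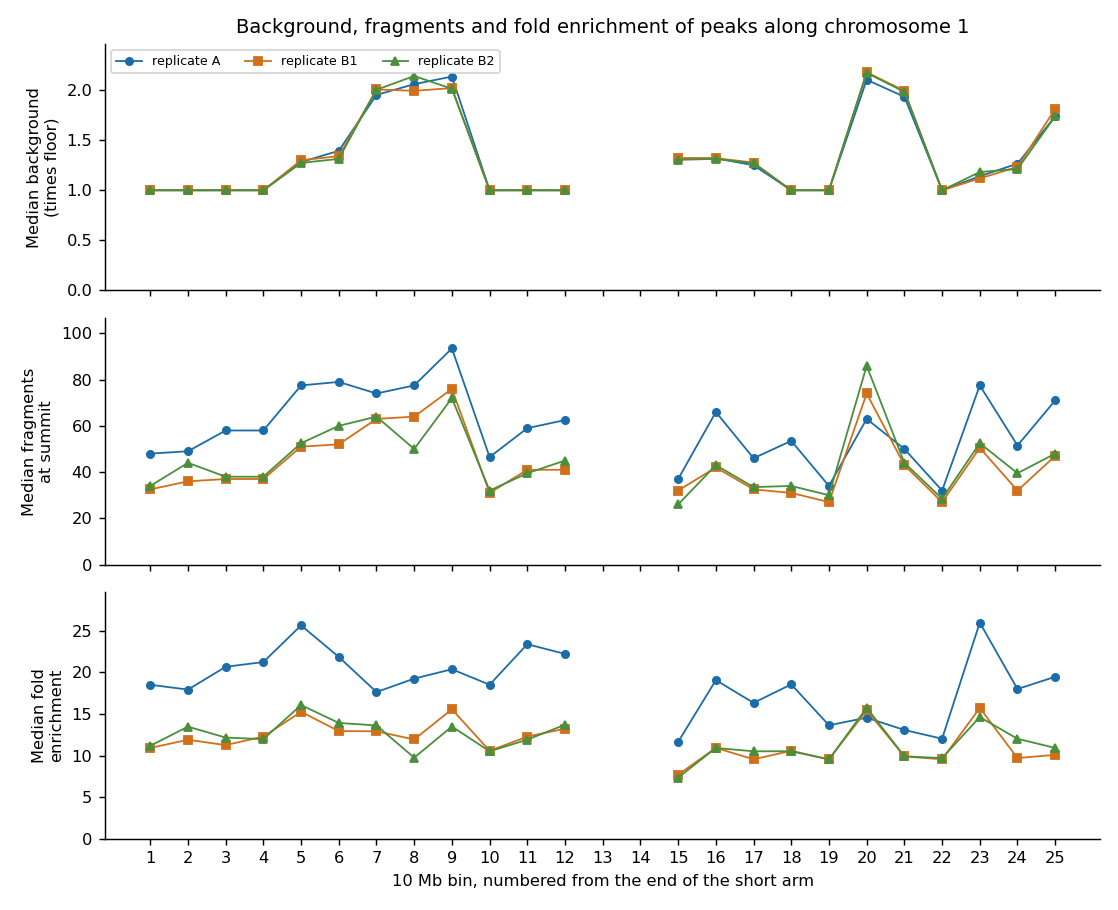
Median background in multiples of the genome-wide floor (top), median ChIP fragments at the summit (middle) and median fold enrichment (bottom) per 10 Mb bin, numbered from the end of the short arm, with a line per replicate and axes from 0. Background is about 2 in bins 7 to 9, 20 and 21 in all 3 lists, and fragments are highest in bin 9 in A and B1 and in bin 20 in B2, while fold enrichment has no such steps.

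Other chromosomes showed arm differences of the same order. Of the 17 other chromosomes with sequence and peaks on both arms, 16 had a difference of peaks per TSS larger in size than that of chromosome 1, from -0.54 on chromosome 6 to 0.42 on chromosome 9. For median fold enrichment 3 had a larger difference, from -0.33 ± 0.060 on chromosome 4 to 0.27 ± 0.087 on chromosome 12, and for the mean background 5 did. Chromosome 1 was therefore among the most even in peaks per distinct TSS and among the less even in fold enrichment, as a description over 18 chromosomes that share the libraries. With 1 TSS per gene its difference of peaks per TSS was -0.188, and the other chromosomes were not recomputed that way.

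**Figure D4:**
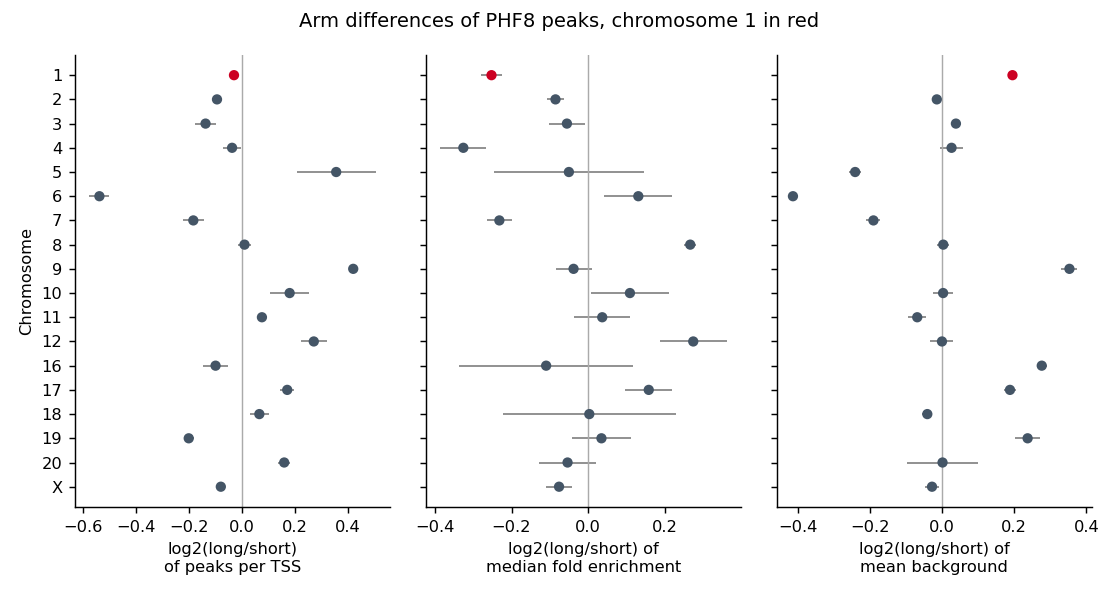
Long arm over short arm on the log2 scale for chromosome 1 (red) and 17 other chromosomes: peaks per TSS (left), median fold enrichment (middle) and mean background (right). Points are means of the 3 lists and bars their SD. Chromosome 1 lies at -0.030, -0.25 and 0.195.

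Fewer genes of the long arm were promoter targets, which are genes whose 1 kb TSS windows held a peak in each of the 3 lists. On chromosome 1, 57.2% of 2092 protein-coding genes were targets, and on the other chromosomes 60.6% of 18071. On the short arm 669 of 1093 were (61.2%, 95% Wilson interval 58.3 to 64.1) and on the long arm 528 of 999 (52.9%, 49.8 to 55.9). The difference of -8.35 percentage points had an interval of -12.6 to -4.11 that covers counting error only, since the 3 lists give 1 value. Among lncRNA genes the shares were 26.1% (23.2 to 29.2) and 22.6% (19.7 to 25.8), with overlapping intervals.

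Genes were also split by the sequence at their start. Of genes with a CpG-island-like start, 549 of 686 on the short arm (80.0%, 76.9 to 82.8) and 407 of 486 on the long arm (83.7%, 80.2 to 86.8) were targets. Of the others, 120 of 407 (29.5%, 25.3 to 34.1) and 23.6% of 513 (20.1 to 27.4) were. The intervals of the arms overlap in both classes, and whether the arm difference depends on the class was not tested. Genes with other starts made up the larger class on the long arm and the smaller class on the short arm.

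**Figure D5:**
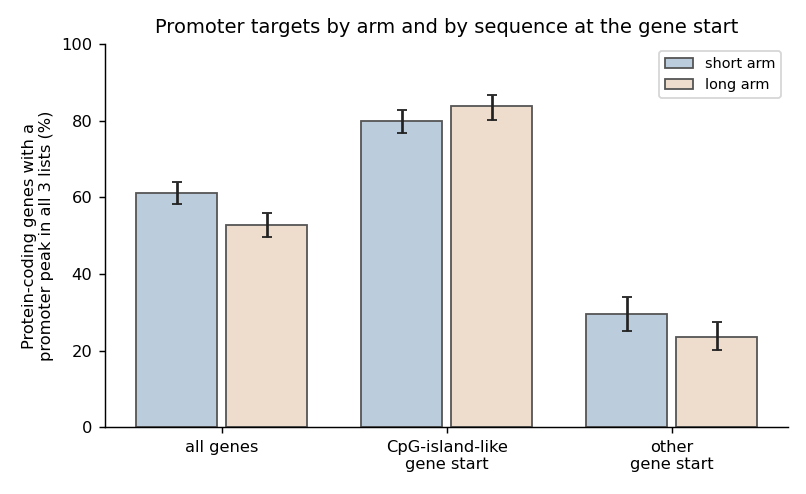
Share of protein-coding genes with a promoter peak in all 3 lists (percent, axis 0 to 100) on the short and the long arm, for all genes and for genes with and without CpG-island-like sequence at the gene start. Bars give the share and whiskers 95% Wilson intervals. The long arm is lower over all genes (52.9% against 61.2%), while the intervals of the arms overlap within each class of start.

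Members of clustered gene families were more numerous on the long arm. In 12 lists of such families, the long arm had 171 members, of which 16 were targets and 155 were not, out of 471 long arm genes that were not. The short arm had 52 members, of which 2 were targets and 50 were not, out of 424. Over all protein-coding genes, 52.9% of the long arm and 61.2% of the short arm were targets. The part of these families in the arm difference of targets was not tested. The lists were chosen with earlier results of these data known, so their low counts are a description.

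The families differed among themselves. Among epidermal differentiation genes, which encode the cornified envelope of skin and lie at chr1:152056617-153234600, 0 of 40 were targets, against 57.2% of protein-coding genes of the chromosome. The olfactory receptor genes had 0 of 65, of which 62 lie on the long arm. The PRAMEF genes, a repeated family of the outer short arm, had 0 of 23. The complement factor H genes, listed with their neighbour F13B, had 0 of 7, the cytochrome P450 CYP4 genes 0 of 5, the amylase genes 0 of 5, the GBP genes, interferon-induced GTPases, 0 of 7 and the GSTM genes, glutathione transferases, 0 of 5. Of the last 2 families, GBP3, GSTM4 and GSTM2 had a peak in 2 lists and GBP2 in 1. Among leukocyte surface genes of the CD1, SLAMF, FCRL and Fc receptor families 1 of 24 was a target, FCRLB.

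Other families had a mixed picture. Of the S100A genes, small calcium-binding proteins on either side of the epidermal cluster, 7 of 15 were targets, against 57.2% of protein-coding genes of the chromosome, a share inside their interval (46.7%, 24.8 to 69.9). S100A11 had a fold enrichment of 29.9, 15.1 and 13.9 in A, B1 and B2 and S100A10, the annexin A2 partner, 25.7, 14.1 and 13.4, whereas S100A7, S100A8, S100A9 and S100A12 had no peak in any list. S100A1 and S100A13 shared 1 peak. Of the replication-dependent histone genes 5 of 13 were targets, against the same 57.2%, from 2 peaks, 1 shared by H2BC21, H2AC21 and H2AC20 at 15.2, 9.91 and 12.5. Of the NBPF genes, a family of near-identical copies next to the centromere and on the short arm, 5 of 14 were, again against 57.2%. Near-identical copies cannot be told apart by reads that fit several of them, so the values of the NBPF, PRAMEF, amylase, histone and Fc receptor genes are uncertain.

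Of the listed cell cycle genes 16 of 16 were targets, 9 on the short and 7 on the long arm, and of the cytosolic ribosomal protein genes 5 of 5 were, against 57.2% of protein-coding genes of the chromosome. The strongest cell cycle genes were CDKN2C, an inhibitor of CDK4 and CDK6, with 41.6, 22.8 and 23.7, KIF2C, a microtubule depolymerase of the centromere, with 42.2, 21.1 and 19.0, and CDC20, the activator of the anaphase-promoting complex, with 42.9, 18.8 and 17.1. The weakest were CDC7, E2F2 and CDK11B. CDC7, the kinase that starts replication origins, had 13.2, 7.95 and 9.86, and CDK11B, a near copy of CDK11A, had 12.1, 5.80 and 6.90. Against the median promoter target of all chromosomes, the list was low, with a median percentile of 30.5. Among the ribosomal protein genes RPS27, the long arm member, had 45.8, 27.7 and 25.3.

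Of the chromatin regulators 22 of 25 were targets, 13 of 13 on the long arm and 9 of 12 on the short arm, against 57.2% of protein-coding genes of the chromosome. KDM4A, a lysine demethylase of the same Jumonji family as PHF8, had the highest rank, with 56.2, 35.8 and 29.8 and the percentile 93.1 ± 3.02 among targets. RBBP5, a core subunit of the MLL and SET1 complexes, had 41.8, 35.7 and 35.1 over a background of 2.99 times the floor in A. ASH1L, a histone methyltransferase, had 50.1, 28.1 and 29.2. At the low end were PHF13 with 28.1, 9.57 and 8.87, SETDB1, which writes silencing methylation, with 16.1, 9.29 and 10.6, and RNF2, the ubiquitin ligase of Polycomb complex PRC1, with 17.5, 8.73 and 6.81. The 3 without a promoter peak were PRDM16, CHD5 and the testis bromodomain gene BRDT, all on the short arm. The zinc finger genes were targets in 17 of 20 cases, from ZNF436 with 49.1, 26.6 and 27.6 to ZNF362 with 12.9, 8.18 and 10.8, and ZNF683, ZNF648 and ZNF124 were not.

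Of the cancer genes 22 of 24 were targets, 11 of 12 on each arm, against 57.2% of protein-coding genes of the chromosome. The strongest were MUTYH, a DNA repair glycosylase, with 59.0, 28.2 and 30.3, SDHB, a subunit of succinate dehydrogenase, with 42.9, 28.6 and 24.0, and FH, fumarate hydratase, with 42.1, 31.4 and 22.1. The weakest were ABL2 with 15.5, 7.61 and 7.53, DDR2, a collagen receptor kinase, with 12.3, 7.82 and 7.01, and MYCL with 12.5, 6.48 and 7.23. NRAS, the melanoma oncogene of the short arm, was between them with 25.7, 16.2 and 15.0. TP73, a p53 family member, had a peak in 1 list.

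The study followed TGF-beta signalling, in which ligands bind receptor kinases that act through SMAD proteins. Of 10 genes of the TGF-beta family and pathway on chromosome 1, 6 were targets, 5 of 7 on the short arm and 1 of 3 on the long arm, a share close to the 57.2% of protein-coding genes of the chromosome. Among ligands TGFB2 on the long arm was bound weakly, with 8.97, 6.82 and 6.57 and the percentile 5.61 ± 1.45, and so was BMP8B with 12.5, 6.14 and 5.59. BMP8A, its near copy, and the NODAL antagonists LEFTY1 and LEFTY2 had no promoter peak in any list. Among antagonists and effectors NBL1, which sequesters BMP ligands, was the strongest, with a mean of 29.7 ± 11.7 (SD, n = 3). It was followed by ZFYVE9, the SMAD anchor SARA, with 32.8, 19.6 and 19.8, SKI, a SMAD corepressor, with 35.8, 15.3 and 19.1, and the target gene ID3 with 20.7, 15.7 and 15.8. TGFBR3, the coreceptor betaglycan, had a peak in 2 lists.

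Ranked by mean percentile over the lists, the strongest promoter peaks of protein-coding genes were alike in height on both arms. Among all peaks of single lists the short arm reached higher than those named here, with 71.1 in A and 47.3 in B2. On the short arm the peak of AGO1, an Argonaute protein of small RNA silencing, at chr1:36348724-36349513 in B2 had a fold enrichment of 66.6, 42.6 and 38.8 from 170, 124 and 117 fragments. The peak of CZIB, a zinc-binding protein, at chr1:53685629-53686759 had 180, 136 and 135 fragments, and its sequence is given above. The peak shared by MRPL37, a mitochondrial ribosomal protein, CYB5RL and ENSG00000256407 had 64.1, 41.2 and 34.7. On the long arm the peak shared by SMG5, a factor of nonsense-mediated decay, and TMEM79 at chr1:156252044-156253062 had 57.3, 48.6 and 44.9 from 176, 171 and 165 fragments. IBA57, a mitochondrial iron-sulfur cluster factor, had between 136 and 153 fragments in the lists at chr1:228353377-228354358. NAXE, a metabolite repair epimerase, had 67.7, 35.3 and 39.9, and JMJD4, another Jumonji family hydroxylase, had 60.4, 36.5 and 35.8. Where 1 peak serves several genes, their values are 1 measurement. Over all targets the median percentile was 54.1 on the short arm and 46.9 on the long arm.

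The leading target differed in height between bins. Among bins without one of the genes just named, the highest leaders were ADIPOR1, an adiponectin receptor, with 58.3, 35.9 and 35.0 over 1.98 times the floor in A and 238 fragments, the most on the chromosome in that list, and POMGNT1, a glycosyltransferase of dystroglycan, with 57.2, 41.4 and 40.0. ICMT led the outermost bin of the short arm with 52.6, 36.8 and 33.8 and DESI2 the outermost of the long arm with 50.0, 36.1 and 33.1. The lowest leaders of the bins used were ODR4 from 180 to 190 Mb with 34.9, 20.1 and 21.7 and ANGEL2 from 210 to 220 Mb with 35.6, 23.2 and 25.3. The bin of ANGEL2 had the largest share of targets, 78.0% of 41 genes (63.3 to 88.0), with 230 to 240 Mb next at 78.0% of 50 (64.8 to 87.2). The smallest shares were 36.7% of 30 genes (21.9 to 54.5) from 190 to 200 Mb, which holds the complement factor H genes, and 38.0% of 92 (28.8 to 48.3) from 240 to 250 Mb, which holds most of the olfactory receptor genes.

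Regions away from gene starts were few and equal in raw count, but not as a share of the regions of each arm. In all 3 lists and outside every TSS window were 56 of 1201 regions of the short arm (4.66%, 95% Wilson interval 3.61 to 6.01). On the long arm they were 56 of 971 (5.77%, 4.47 to 7.42), with an overlapping interval. By summit, 29 and 30 of them were intergenic, 23 and 19 intronic and 4 and 7 in exons. Their median distance to a TSS was 5895 and 6716 bp. The strongest of the long arm lay in intergenic sequence at chr1:153755693-153756625 over the lists, 2218 bp from the start of a Y RNA gene, with 50.8, 39.9 and 38.6 from 186, 135 and 136 fragments. It ranked above 98.4% of the chromosome 1 peaks of a list on average. The strongest of the short arm, at chr1:1840103-1840600 over the lists, was intergenic and 6112 bp from a start of CALML6, with 54.2, 31.0 and 28.3. Next on the short arm were an intron of CROCC at chr1:17240592-17241110 with 42.5, 24.2 and 22.7, a gene with near-identical pseudogene copies, and an intronic region at chr1:32965699-32966739 with 42.5, 23.9 and 21.0. Next on the long arm were an exon of LINC02767 at chr1:208136550-208137021 with 32.4, 23.6 and 21.8 and an intron of ITPKB at chr1:226890881-226891655 with 28.0, 23.5 and 21.8.

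Of 8 short sequence motifs searched within 100 bp of the summit, the GC box differed most between the arms in percentage points. Some rarer motifs differed more as a ratio, the TATA and CCAAT boxes by more than 1 SD of the difference, and TGACGTCA and GCATGCGC by less. GGGCGG, the GC box read by SP and KLF factors, stood on either strand in 45.6% ± 1.11 of short arm windows and 38.8% ± 1.21 of long arm windows, against 42.4% ± 1.05 on the other chromosomes. The difference was -6.82 ± 0.21 percentage points (SD, n = 3), with 44.4%, 46.5% and 46.0% on the short arm and 37.5%, 39.9% and 39.0% on the long arm. Its letters hold a CG, so it is not independent of the CpG count. CCGGAAG, read by ETS factors, stood in 4.09% ± 0.17 and 3.97% ± 0.30, and ATGGCGG, read by YY1, in 4.68% ± 0.30 and 4.43% ± 0.30. The TATA box, as TATAAA, was rarer on the short arm with 1.70% ± 0.30 than on the long arm with 2.52% ± 0.45, and 2.29% ± 0.30 elsewhere. CCAATC, the CCAAT box read by NFY, stood in 3.16% ± 0.59 and 4.35% ± 0.57. For CACGTG, GCATGCGC and TGACGTCA the shares differed by less than 1 SD of the difference. A match is a run of letters and not a measured site.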

How the data were processed

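The authors mapped reads to hg19 (Bowtie2, default options) and ran MACS in narrow mode on each replicate with input as control, keeping fold enrichments over 1.5 at a q-value limit of 0.05 and pooling nothing. bcl2fastq and Picard are in the submitters' processing notes, and versions, duplicate treatment and read totals are not given in the sources used here, so depth is unknown. The deposited lists give fold enrichment (a linear ratio), −log10 p and −log10 q values, a score that was not used, and positions. Fragments and background were solved from the deposited ratio and p-value under a Poisson law, which gave whole numbers for 100% of peaks within 0.001, and the code was tested on simulated data. The deposited ratio was taken as fragments plus 1 over background plus 1. TSSs and genes were from GENCODE release 44 lifted to GRCh37. Centromeres of other chromosomes were their longest run of N. Gene percentiles rank fold enrichment among all promoter targets, and those of distal regions among the chromosome 1 peaks of a list. Python 3.11.15, pandas 2.3.3, SciPy 1.17.1 and samtools 1.23.1 were used. Arms were compared within lists by two-sided exact sign-flip permutation tests.

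Named were the 5 leading targets and 3 leading distal regions per arm, the leading target of each bin (the extremes are printed), the 3 bins with the highest and lowest rates, and the list members at the extremes, with NRAS, PEX14, PSMD4, the printed ribosomal, zinc finger, histone and S100A members and the stretches chosen after their values were seen. The members and lists were chosen with earlier results of these data known. Some list members are not reported here. Alternatives are given in the closing section.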

Additional observations from a re-analysis of the deposited data

How the results depend on the processing

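Of 97 recomputed values, 85 kept their direction or size, 7 changed sign and 5 moved. The long arm deficit of fold enrichment kept its sign under 12 alternatives (-0.38 to -0.073), as did that of the −log10 q-value (12, -0.585 to -0.037) and that of promoter targets (12, -8.92 to -7.09 points). Peaks per TSS turned to 0.00052 with protein-coding transcripts only. Width turned to 0.058 and fragments to 0.028 among CpG-island-like peaks, an alternative added after seeing the data, and fragments to 0.0013 as a mean of log2 values. The share at TSS windows turned to 2.99 points with 1 TSS per gene. The share in all lists turned to -0.322 at a q-value below 0.001 and to -1.11 at a fold enrichment above 4. The spread over bins was 25.04% with 1 TSS per gene, 19.0% with protein-coding transcripts, 21.3% with TSSs merged within 1 kb, 20.3% in 5 Mb bins and 14.8% in 20 Mb bins. Leaving out 1 replicate changed no sign, but without replicate A the fragment difference was -0.073 in place of -0.119, and without B2 the share in all lists differed by 0.640 points. The causes were not tested. The 2 arms were paired by taking their difference within each list. The lists form 1 group, with no other group of samples to pair them with. The 3 lists cannot give a p below 0.25, and without read totals the depth behind missing peaks is unknown.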
